A study of Mus musculus with 27 samples.

Results

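The resistin-like genes Retnla, Retnlg and Retn were examined together with 7 other genes of alternative macrophage activation, Chil3 (listed on older annotations as Chi3l3), Chia1, Arg1, Mrc1, Clec10a, Il4ra and Stat6, in mouse lung 24 h after whole thorax irradiation. The genes were taken by name, and the study had already picked out Retnla for its changes on arrays of this series. Of the 10, 9 were measured by at least 1 probe set that carries that symbol alone, out of 18194 genes so measured. Retnlg (chr16:48872608-48874498, build GRCm38.p6) was named by no such probe set and its level was not analysed here. A gene's level is log2 of the deposited intensity, floored at 1, of 1 probe set, the brightest by its mean over all 27 arrays. Il4ra had 3 probe sets, Stat6 had 2 and the others 1.

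The lungs came from female mice of 3 inbred strains, CBA/J, C57L/J and C57BL/6J, aged 10 to 12 weeks at irradiation. Each strain was given 0 Gy (sham), 12.5 Gy or 15 Gy of X-rays in a single dose with head, abdomen and forelimbs shielded, and each of the 9 groups held 3 biological replicates, labelled as not pooled. The labels describe the radiation response of CBA/J as pneumonitis only, that of C57L/J as mixed pneumonitis and fibrosis, and that of C57BL/6J as fibrosis with mild pneumonitis. For C57L/J and C57BL/6J the study's methods name the right upper lobe as the tissue, and the array comparison they describe covers these strains and not CBA/J. Each array reports RNA of all the cells in a piece of lung, so that fewer cells of a type and less RNA per cell cannot be told apart.

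The lung defining genes were bright on every array (Scgb1a1 of club cells at 14.62 to 15.28 and Sftpc of type II cells at 14.23 to 14.93). On 9 arrays the mean of 10 skeletal muscle genes lay 2.85 to 8.45 above the median array, and on the other 18 at most 0.33 above it. These 9 arrays, called muscle arrays here, were CBA/J 0 Gy replicates 1 and 2, CBA/J 12.5 Gy replicates 2 and 3, C57L/J 15 Gy replicate 3, C57BL/6J 12.5 Gy replicates 1 and 2 and C57BL/6J 15 Gy replicates 2 and 3. On these arrays the mean of 7 squamous epithelium genes ran from 7.04 to 11.98, against 5.05 to 6.47 on the other 18. The thyroid gene Tg reached 15.07 on them, against at most 5.63 on the other 18. The muscle arrays include 2 sham arrays, both CBA/J, and the other 7 were irradiated. The calls below that rest on them are also given without them where enough arrays remained for a fit.

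Resistin-like proteins are small secreted cysteine-rich peptides. Resistin, the product of Retn, is released by mouse adipocytes, whereas RELM-alpha, the product of Retnla (also called FIZZ1 or HIMF), is made by macrophages and airway epithelium in the inflamed mouse lung. Interleukin 4 and interleukin 13 bind receptors that share the chain encoded by Il4ra, the receptor activates the transcription factor encoded by Stat6, and in mouse macrophages Retnla, Chil3, Arg1, Mrc1 and Clec10a are among the genes that rise. Macrophages in this state are called alternatively activated, and they are known for tissue repair, chitin responses and fibrosis.

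STAT6 binds inverted repeats of the letters TTC and GAA, by preference with 4 bases between them. The start regions of the resistin-like genes and of Chil3 are shown, whether or not they hold such letters. Each stretch holds 250 bases before and 50 after the annotated gene start, from RefSeq on build GRCm38.p6, 5′ to 3′ on the gene's own strand, with capitals marking a match to TTCNNNNGAA or TTCNNNGAA. Retnla lies at chr16:48842359-48842658 (+), Retnlg at chr16:48872358-48872657 (+), Retn at chr8:3655520-3655819 (+) and Chil3 at chr3:106167515-106167814 (-).
Retnla: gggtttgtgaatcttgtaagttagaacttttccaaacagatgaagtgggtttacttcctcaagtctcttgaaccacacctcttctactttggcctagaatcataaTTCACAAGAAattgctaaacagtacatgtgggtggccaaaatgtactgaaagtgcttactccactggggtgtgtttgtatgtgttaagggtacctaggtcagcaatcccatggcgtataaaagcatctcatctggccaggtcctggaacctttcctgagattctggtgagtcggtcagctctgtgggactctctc
Retnlg: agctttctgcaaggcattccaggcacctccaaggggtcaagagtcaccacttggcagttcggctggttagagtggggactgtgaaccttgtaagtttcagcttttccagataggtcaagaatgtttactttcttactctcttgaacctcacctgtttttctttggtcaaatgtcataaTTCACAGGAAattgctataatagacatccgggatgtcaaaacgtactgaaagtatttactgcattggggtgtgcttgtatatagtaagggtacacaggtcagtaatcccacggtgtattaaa
Retn: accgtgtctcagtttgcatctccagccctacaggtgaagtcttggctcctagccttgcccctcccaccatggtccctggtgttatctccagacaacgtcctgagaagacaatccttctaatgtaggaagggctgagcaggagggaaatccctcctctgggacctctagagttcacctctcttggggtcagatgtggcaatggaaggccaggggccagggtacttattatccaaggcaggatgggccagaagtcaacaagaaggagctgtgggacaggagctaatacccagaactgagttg
Chil3: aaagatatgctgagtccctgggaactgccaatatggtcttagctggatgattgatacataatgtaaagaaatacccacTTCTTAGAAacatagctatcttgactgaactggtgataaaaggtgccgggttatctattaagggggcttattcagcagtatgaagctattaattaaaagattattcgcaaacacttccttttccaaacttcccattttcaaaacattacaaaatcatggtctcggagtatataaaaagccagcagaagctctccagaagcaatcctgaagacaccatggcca

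The Retnla window held TTCACAAGAA with its first base at -145 from the gene start, and the Retnlg window held TTCACAGGAA with its first base at -72. When both windows were aligned without gaps at their best offset, of 73 bases, 148 of 227 bases (65.2%) were identical. TTCNNNNGAA, which reads the same on both strands, occurred in 2284 of 32851 windows of the same length (6.95%). The Retn, Chil3, Chia1, Mrc1, Il4ra and Stat6 windows held no match to these letters. TTCNNNGAA, the spacing shared by other STAT proteins, occurred in the Chil3 window (TTCTTAGAA, first base at -172) and in 2726 windows in all (8.3%). Of the 10 genes 8 had a window, and the absence of letters here says nothing of binding elsewhere.

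Retnla (chr16:48842609-48844461) was higher in irradiated than in sham-irradiated lungs of C57L/J at both doses and of C57BL/6J at 15 Gy, by 2.31 to 2.75 times. Each of these changes passed an unadjusted limma p of 0.01, the limit used within a strain, and none passed 0.05 after adjustment over all genes. In CBA/J no difference passed. In C57L/J lungs given 12.5 Gy the 3 arrays read 13.36, 13.62 and 13.65, against 12.10, 12.36 and 11.77 in sham lungs. The groups did not overlap, and the change was +1.46 on the log2 scale (SE 0.18, 95% interval 1.00 to 1.92, n = 3 each), with a limma adjusted p = 0.0531. At 15 Gy the C57L/J arrays read 13.75, 13.28 and 12.89, all above the sham arrays, a change of +1.23 (SE 0.28, limma adjusted p = 0.444). Without the muscle array, the lowest of these 3, that change was +1.44 (adjusted p = 0.216). The 12.5 Gy difference passed the unadjusted limit with any single array left out, and the 15 Gy one did not in 4 of 6 cases, all but those without sham replicate 2 or without the muscle array.

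In C57BL/6J the difference passed at 15 Gy and not at 12.5 Gy. The 15 Gy arrays read 14.16, 13.76 and 13.64, against 12.49, 13.04 and 12.40 in sham lungs, without overlap, a change of +1.21 (SE 0.24, limma adjusted p = 0.179). Arrays given 12.5 Gy read 13.21, 12.97 and 12.51 and overlapped the sham arrays, and their change was +0.26 (95% interval -0.39 to 0.90, adjusted p = 0.743), or -0.13 without muscle arrays. The 15 Gy arrays also lay above all 12.5 Gy arrays, by 0.95 (SE 0.24, adjusted p = 1.0), a difference that passed the unadjusted limit and lost it in 5 of 6 cases when a single array was left out, all but 12.5 Gy replicate 1. The difference from sham lost it in 1 of 6 cases, without sham replicate 1. Of the 3 arrays at 15 Gy the highest was the one that was no muscle array, and with muscle arrays left out 1 array remained at 15 Gy, 1.52 above the sham arrays (adjusted p = 0.455), and did not pass the unadjusted limit.

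**Figure D1:**
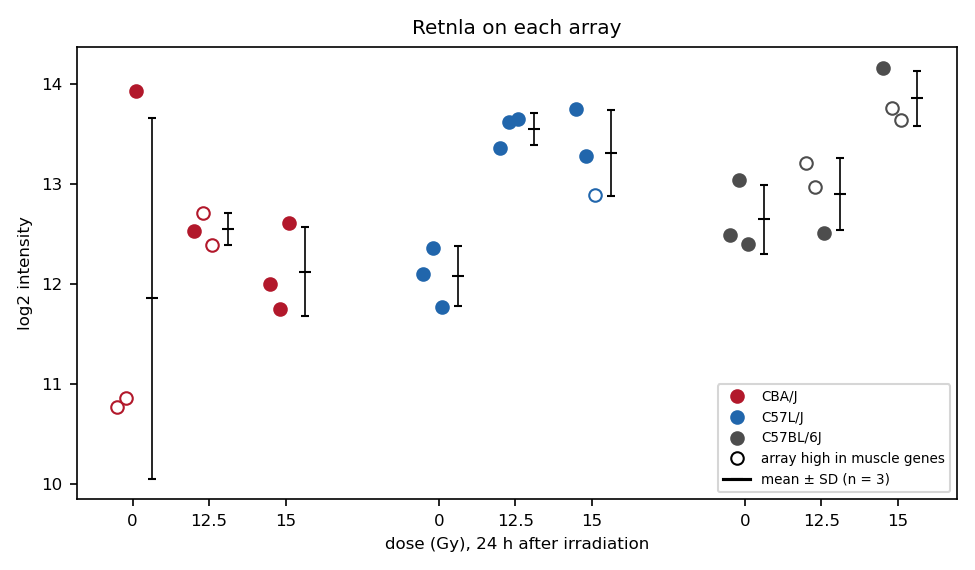
Retnla on each of the 27 arrays, as log2 intensity (vertical axis), by dose within CBA/J, C57L/J and C57BL/6J (horizontal axis). Points are arrays, open points are the arrays high in skeletal muscle genes, and bars give the mean and SD of 3 arrays; all irradiated C57L/J arrays and all C57BL/6J arrays at 15 Gy lie above their sham arrays, and 1 CBA/J sham array, at 13.93, lies above every other CBA/J array.

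In CBA/J the sham arrays disagreed. Retnla read 12.53, 12.71 and 12.39 at 12.5 Gy and 12.00, 11.75 and 12.61 at 15 Gy, against 10.77, 10.86 and 13.93 in sham lungs. The sham array at 13.93 lay above every irradiated CBA/J array and the other sham arrays below every one, so that the SD of the sham group was 1.80 while that of the 12.5 Gy group was 0.16. The changes were +0.69 at 12.5 Gy (95% interval -1.48 to 2.86, limma adjusted p = 0.785) and +0.26 at 15 Gy (-2.0 to 2.53, adjusted p = 0.914), intervals that include the C57L/J and C57BL/6J changes. Without that 1 sham array, replicate 3, the changes were +1.73 (adjusted p = 0.212) and +1.30 (adjusted p = 0.163), and both passed the unadjusted limit. The 2 low sham arrays are both muscle arrays, and with muscle arrays left out the sham group is the high array alone and the 15 Gy change was -1.81 (adjusted p = 0.284). That high array also had the highest mean of adipocyte genes in CBA/J, 12.30, against 7.44 and 9.31 on the other sham arrays. The part of muscle or fat in the CBA/J values was not tested.

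Over the 3 strains together, with strain as a term, Retnla was 0.80 higher at 12.5 Gy (SE 0.35, limma adjusted p = 0.178) and 0.90 higher at 15 Gy (SE 0.35, adjusted p = 0.121) than in sham lungs, neither past the limit of 0.05. Leaving out CBA/J sham replicate 3 alone made both pass, at +1.11 (adjusted p = 0.00321) and +1.24 (adjusted p = 0.000161). With all muscle arrays left out they were +0.51 (adjusted p = 0.558) and +0.55 (adjusted p = 0.576). That leaves replicate 3, the high array, as the only CBA/J sham array.

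The C57L/J response to 12.5 Gy exceeded that of C57BL/6J by 1.21 (SE 0.33), past the unadjusted limit of 0.01. The difference did not pass adjustment over all genes (limma adjusted p = 0.828). Retnla was the only 1 of the 9 genes past an unadjusted 0.01 in that interaction, as 1.19% of all genes were. The study had singled out Retnla on these arrays partly for a change at 12.5 Gy in C57L/J and none in C57BL/6J. The interaction is therefore no independent test. With all 27 arrays in 1 fit the Retnla difference kept its size and no longer passed the unadjusted limit. Without muscle arrays it was 1.60, with 1 C57BL/6J array left at 12.5 Gy. At 15 Gy the responses of these strains differed by 0.02 (95% interval -0.83 to 0.86). Between CBA/J and the other strains the interactions had standard errors of 0.97 to 1.02 and none passed. Without muscle arrays, with the single high sham array left in CBA/J, the CBA/J response minus that of C57L/J was -2.86 at 12.5 Gy (adjusted p = 0.2) and -3.25 at 15 Gy (adjusted p = 0.259), and minus that of C57BL/6J it was -3.33 at 15 Gy (adjusted p = 0.395). These 3 passed the unadjusted limit of 0.01.

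Few of the 9 genes passed the unadjusted limit of 0.01, and the share of all 18194 genes that passed was itself 0.555% to 5.61%. At 12.5 Gy against sham 0 of 9 passed in CBA/J, where 3.28% of all genes did, 1 of 9 in C57L/J (Retnla, against 4.53% of all genes) and 0 of 9 in C57BL/6J (against 3.65%). At 15 Gy against sham 2 of 9 passed in CBA/J (Chia1 and Clec10a, against 5.61%), 1 in C57L/J (Retnla, against 1.86%) and 2 in C57BL/6J (Retnla and Chia1, against 3.81%). At 15 Gy against 12.5 Gy the counts were 1 in CBA/J (Retn, against 1.27%), 0 in C57L/J (against 0.627%) and 1 in C57BL/6J (Retnla, against 0.555%). None of these changes passed an adjusted p of 0.05. Within a strain both doses are set against the same 3 sham arrays. With 3 arrays against 3 an exact permutation test could not go below 0.1 for any single gene.

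The median change of the 9 genes stayed near that of all genes in CBA/J and C57L/J, and in C57BL/6J it lay above it over all arrays. In C57BL/6J it was +0.55 at 12.5 Gy and +0.75 at 15 Gy, with 7 of 9 above 0 at each dose, beside medians of -0.01 and 0.01 over all genes. Without muscle arrays it was -0.12 at 12.5 Gy, with 4 of 9 above 0, and +0.60 at 15 Gy, with 7 of 9 above 0. In CBA/J the medians were +0.07 and -0.07, and in C57L/J -0.01 and +0.01.

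**Figure D2:**
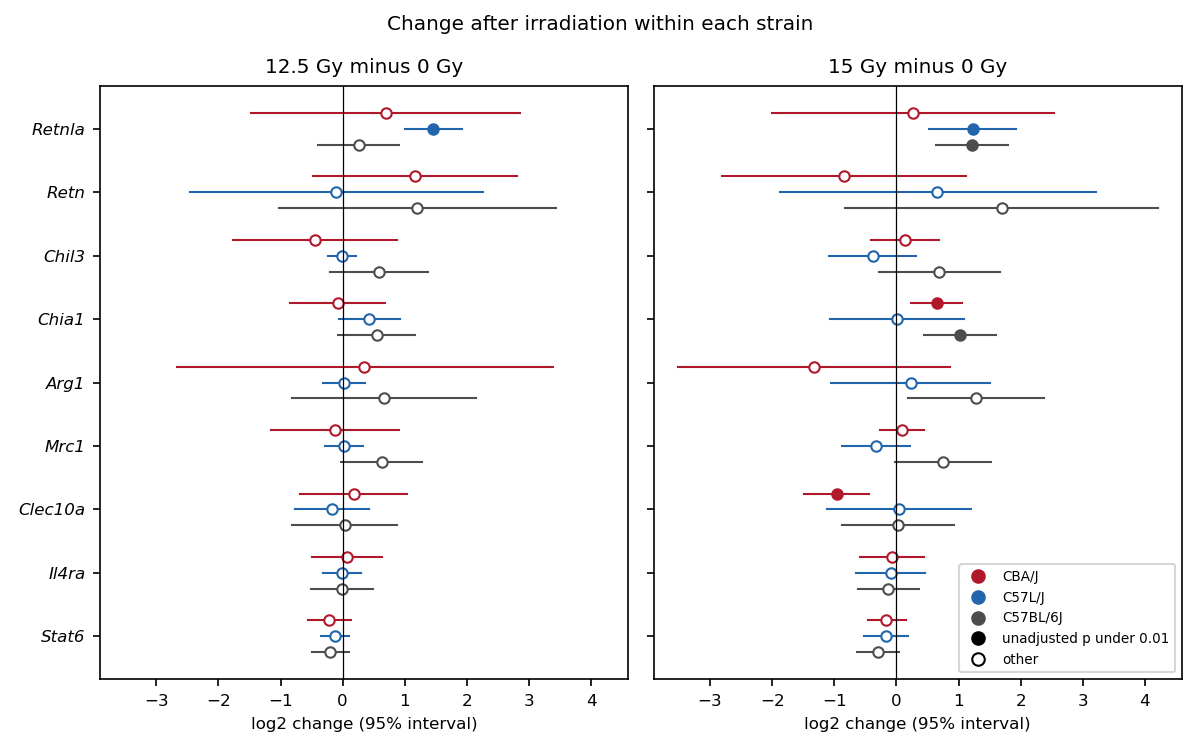
Log2 change (horizontal axis, with 95% intervals from limma) of the 9 measured genes at 12.5 Gy (left) and 15 Gy (right) against sham-irradiated lungs in CBA/J, C57L/J and C57BL/6J. Filled points passed an unadjusted p of 0.01: Retnla in C57L/J at both doses and in C57BL/6J at 15 Gy, Chia1 in CBA/J and C57BL/6J at 15 Gy, and Clec10a, lower, in CBA/J at 15 Gy.

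Among the secreted chitinase-family genes, Chil3 (chr3:106147554-106167564), which encodes the chitin-binding lectin Ym1, differed between strains and passed in no dose comparison. Over all doses the CBA/J arrays ran from 10.52 to 12.54 with a median of 12.00, against 12.89 to 13.95 with a median of 13.87 in C57L/J and 12.53 to 14.35 with a median of 13.49 in C57BL/6J. Every CBA/J array lay below every C57L/J array, and 8 of the 9 lay below every C57BL/6J array. With dose as a term Chil3 was 1.79 lower in CBA/J than in C57L/J (SE 0.23, limma adjusted p = 6.06e-05) and 1.47 lower than in C57BL/6J (SE 0.26, adjusted p = 0.0011). It was the only 1 of the 9 called in each comparison, beside 9.30% and 12.2% of all genes.

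The difference from C57L/J kept its call without muscle arrays (-1.47, adjusted p = 3.09e-06) and, with a larger adjusted p, on sham arrays alone (-1.82, adjusted p = 0.0199). That from C57BL/6J kept its sign and lost the call without muscle arrays (-1.35, adjusted p = 0.0842) and on sham arrays alone (-0.94, adjusted p = 0.355). None of the 9 genes was called by limma between C57L/J and C57BL/6J, where 4.81% of all genes were, and 1 of the 9, Il4ra, was under an unadjusted 0.05. Chil3 differed there by +0.32 (95% interval -0.12 to 0.76). No dose comparison of Chil3 within a strain passed, and its changes ran from -0.45 in CBA/J at 12.5 Gy to +0.69 in C57BL/6J at 15 Gy (limma adjusted p = 0.508). Without muscle arrays, with 1 C57BL/6J array left at each irradiated dose, the C57BL/6J changes were +0.93 at 12.5 Gy and +1.36 at 15 Gy.

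Chia1 (chr3:106113382-106132118), which encodes acidic mammalian chitinase, was higher at 15 Gy in CBA/J and C57BL/6J. In CBA/J the 15 Gy arrays read 11.28, 11.56 and 11.64, against 11.02, 10.62 and 10.91 in sham lungs, without overlap (+0.65, SE 0.16, limma adjusted p = 0.167). In C57BL/6J they read 11.95, 11.39 and 11.95, against 10.52, 10.61 and 11.07, again without overlap (+1.03, SE 0.24, adjusted p = 0.221). Without muscle arrays neither passed the unadjusted limit, at +0.59 in CBA/J (adjusted p = 0.369) and +1.21 in C57BL/6J (adjusted p = 0.51). With single arrays left out the CBA/J call was lost in 5 of 6 cases, all but 15 Gy replicate 1, and the C57BL/6J call in 4 of 6, all but sham replicate 3 and 15 Gy replicate 2. In C57L/J the 15 Gy arrays read 12.04, 11.87 and 10.56, against 11.53, 11.12 and 11.79, and the lowest is the muscle array. That group overlapped sham (+0.01, adjusted p = 0.996), and without the muscle array the change was +0.48 (adjusted p = 0.596).

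Over the strains together Chia1 was 0.56 higher at 15 Gy than in sham lungs (SE 0.21, limma adjusted p = 0.0962). Leaving out the single C57L/J muscle array gave +0.73 (adjusted p = 0.00224), and leaving out all muscle arrays +0.71 (adjusted p = 0.0414). At 12.5 Gy its pooled change was +0.30 (adjusted p = 0.299).

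Retn (chr8:3655770-3659818) spread over 4.99 log2 units, the widest range of the 9 genes, and 28.6% of its variance lay between the groups of strain and dose. In CBA/J it read 9.04, 7.25 and 7.81 at 15 Gy, against 9.73, 10.36 and 10.06 at 12.5 Gy, without overlap, a difference of -2.02 (SE 0.48, limma adjusted p = 0.694). The sham arrays of that strain, at 7.43, 9.19 and 10.01, overlapped both. In C57L/J the 15 Gy arrays read 8.97, 8.17 and 11.57, against 9.92, 9.20 and 7.61 in sham lungs. In C57BL/6J they read 8.54, 11.24 and 10.01, against 9.85, 6.59 and 8.26. No other comparison of Retn passed, and without muscle arrays the CBA/J difference was -1.70 (adjusted p = 0.872), no longer past the limit. That call was also lost in 5 of 6 cases when a single array was left out, all but 15 Gy replicate 1.

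Retn followed the adipocyte genes array by array. Its level correlated with the mean of 9 adipocyte genes, among them Adipoq (6.51 to 13.90) and Cidec (5.41 to 12.07), at Pearson r = 0.90 and Spearman rho = 0.92 over 27 arrays (permutation p = 1e-05 for each, the smallest 100000 permutations can give, adjusted p = 0.00024 and 0.00036 over 72 relations). The r was 0.94 after subtracting group means, 0.90 without the 2 arrays farthest from the median of the adipocyte mean and 0.83 over the 18 arrays that were not muscle arrays. In the CBA/J comparison above, the median change of the adipocyte genes from 12.5 to 15 Gy was -1.86 and that of the skeletal muscle genes -4.96. The relation of Retnla to the same adipocyte mean was r = 0.19 (permutation p = 0.33). Retn also followed the mean of 6 eosinophil genes, at r = 0.81, 0.83 after subtracting group means and 0.79 without muscle arrays. That mean was dim, at 3.07 to 5.33 over all arrays beside a median gene level of 8.33, so the relation does not show eosinophils. With the mean of 10 hypoxia response genes Retn gave 0.71, 0.69 and 0.65 in the same order.

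**Figure D3:**
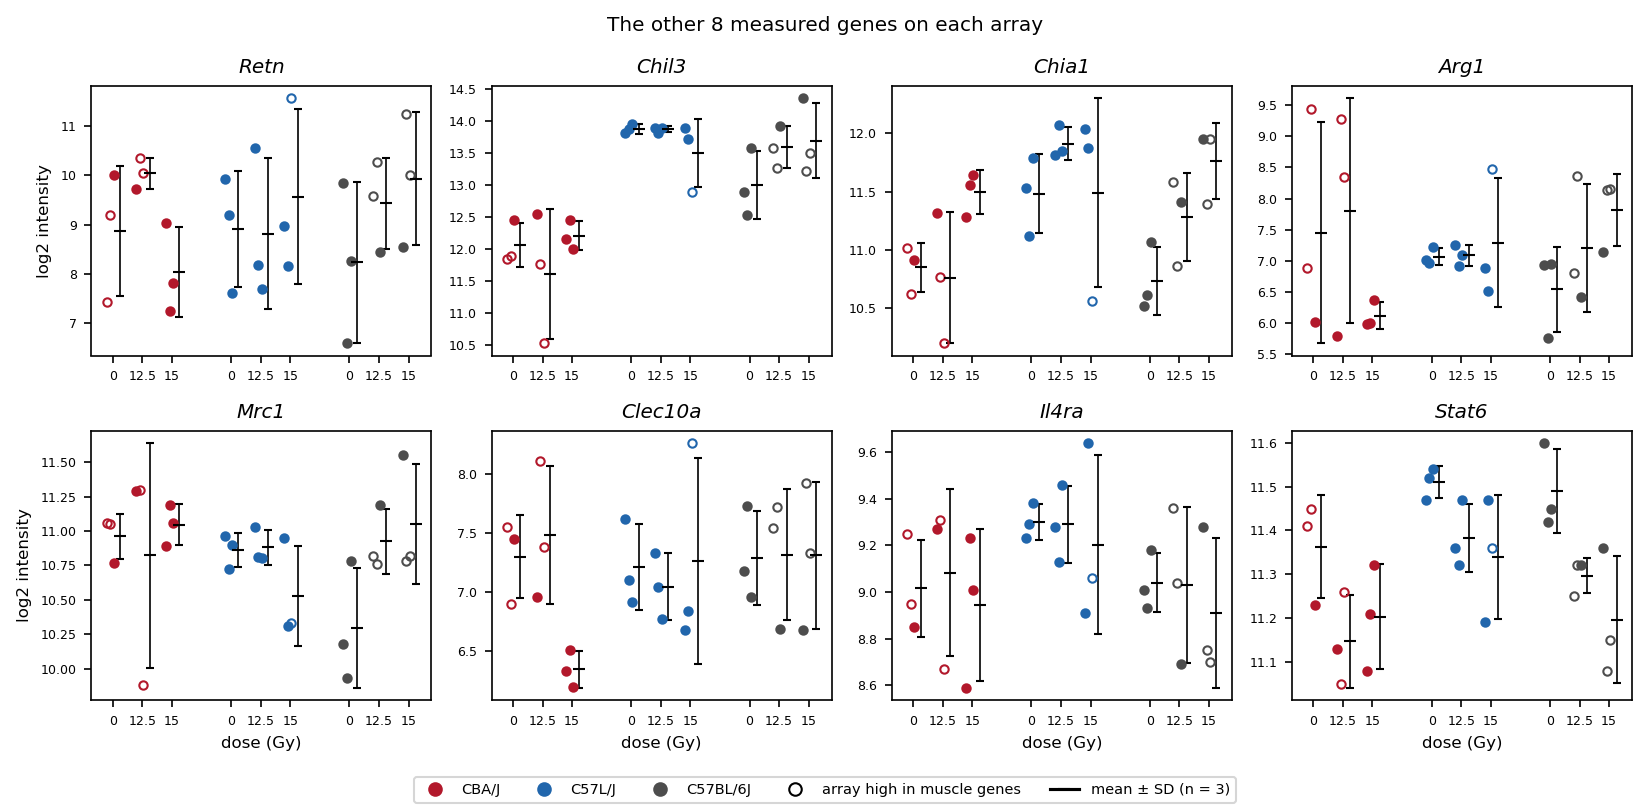
The other 8 measured genes on each array, as log2 intensity (vertical axes, which differ between panels), by dose within CBA/J (red), C57L/J (blue) and C57BL/6J (grey). Open points are arrays high in skeletal muscle genes, and bars give the mean and SD of 3 arrays; Chil3 is low in CBA/J at each dose, and Arg1 exceeds 8 only on open points.

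Among the macrophage effector and receptor genes, Arg1 (chr10:24915207-24927470), which encodes the arginase that turns arginine into ornithine, was highest on muscle arrays and passed in no dose comparison. It read from 6.81 to 9.44 (median 8.35) on the 9 muscle arrays, against 5.75 to 7.25 (median 6.90) on the other 18. The CBA/J sham array at 9.44 and the CBA/J 12.5 Gy array at 9.28 had squamous epithelium means of 11.32 and 11.44. The array highest in muscle genes, CBA/J 12.5 Gy replicate 3, had a squamous mean of 7.04 and Arg1 at 8.35. How far muscle or squamous tissue enters the Arg1 values was not tested. In C57BL/6J Arg1 read 7.14, 8.14 and 8.16 at 15 Gy, against 6.93, 5.75 and 6.94 in sham lungs, without overlap (+1.28, SE 0.44, limma adjusted p = 0.351), and both higher arrays at 15 Gy are muscle arrays. Without muscle arrays that change was +0.60 (adjusted p = 0.88). In CBA/J the 15 Gy arrays, none of them muscle arrays, read 5.98, 6.00 and 6.37, against 6.89, 9.44 and 6.02 in sham lungs. Without muscle arrays Arg1 was 0.91 lower in CBA/J than in C57L/J over doses (adjusted p = 0.00244), whereas over all arrays the difference was -0.02 (adjusted p = 0.988). Arg1 followed the 10 hypoxia response genes at r = 0.76 and rho = 0.53 (permutation p = 4e-05 and 0.0046, adjusted p = 0.00048 and 0.0331), and without muscle arrays at r = -0.22.

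Mrc1 (chr2:14229414-14332023), which encodes the macrophage mannose receptor CD206, did not pass in any comparison. The difference nearest to its limit was that of the responses of C57L/J minus C57BL/6J to 15 Gy (-1.08, SE 0.40, limma adjusted p = 1.0). In C57BL/6J at 15 Gy it read 11.55, 10.78 and 10.82, against 10.18, 9.93 and 10.78 in sham lungs (+0.75, SE 0.31, limma adjusted p = 0.407). In C57L/J the 15 Gy arrays read 10.95, 10.31 and 10.33, against 10.96, 10.72 and 10.90 (-0.33, adjusted p = 0.736). Mrc1 followed the mean of 9 alveolar macrophage genes at r = 0.79 and rho = 0.70 over the 27 arrays (permutation p = 1e-05 and 0.0001, adjusted p = 0.00024 and 0.00144), at 0.87 after subtracting group means and at 0.73 without muscle arrays. Without the 2 arrays farthest from the median of that mean r was 0.70.

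Clec10a (chr11:70166623-70170836), which encodes the galactose-type lectin MGL1 of macrophages and dendritic cells, was lower at 15 Gy in CBA/J. There it read 6.33, 6.51 and 6.20, against 7.55, 6.90 and 7.45 in sham lungs, without overlap (-0.96, SE 0.21, limma adjusted p = 0.13). The 15 Gy arrays also lay below all 12.5 Gy arrays of CBA/J, which read 6.96, 8.11 and 7.38 (-1.14, adjusted p = 0.694). The only sham array that is no muscle array read 7.45, and against it alone the change was -1.11 (adjusted p = 0.251) and passed the unadjusted limit. With single arrays left out the call was lost in 4 of 6 cases, all but sham replicate 2 and 15 Gy replicate 2. In C57L/J and C57BL/6J the 15 Gy changes were +0.04 and +0.03, with 1 muscle array at 8.26 among the C57L/J values. Over the strains together and without muscle arrays Clec10a was 0.68 lower at 15 Gy than in sham lungs (adjusted p = 0.0594), and over all arrays 0.30 lower (adjusted p = 0.498).

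**Figure D4:**
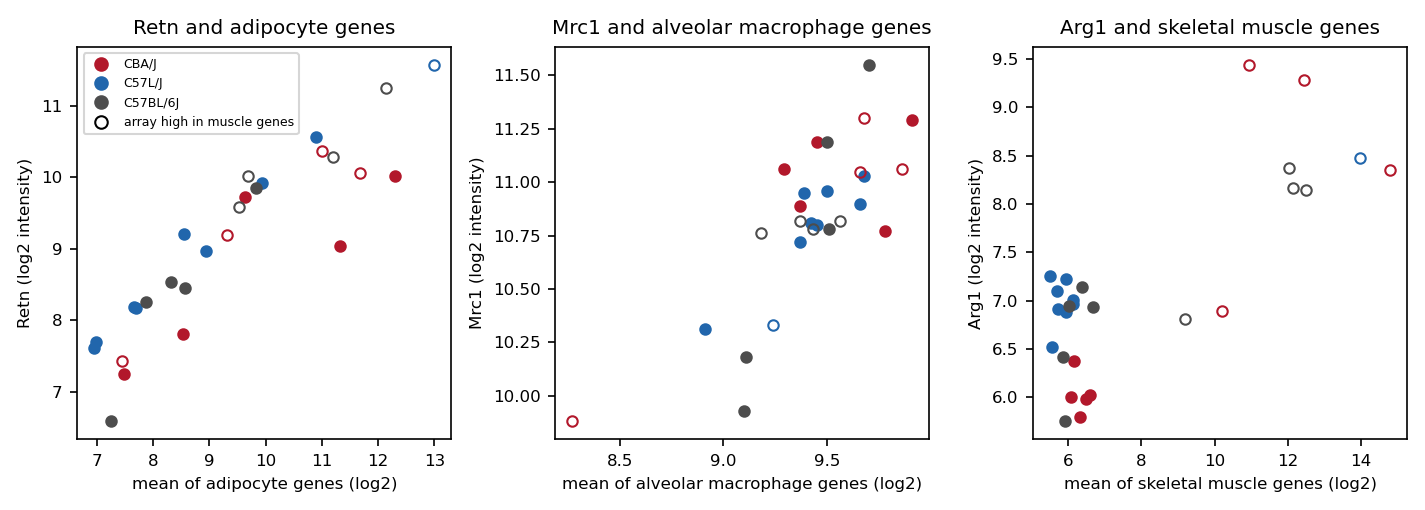
Retn against the mean of 9 adipocyte genes (left), Mrc1 against the mean of 9 alveolar macrophage genes (middle) and Arg1 against the mean of 10 skeletal muscle genes (right), all in log2 intensity, 1 point per array, coloured by strain. Open points are arrays high in skeletal muscle genes; Retn lies along a line over the whole range (r = 0.90), and Arg1 lies between 5.75 and 7.25 on every filled point.

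The receptor and the transcription factor had the narrowest ranges of the 9 genes. Il4ra (chr7:125552271-125579474) ran from 8.59 to 9.64 over all 27 arrays, with no comparison past its limit and irradiated-minus-sham changes of -0.13 to +0.07 within strains. Its other probe sets, dimmer, did not follow it. The dimmest averaged 6.72 at 12.5 Gy and 6.77 at 15 Gy in C57BL/6J against 6.04 in sham lungs, and 6.01 and 5.48 in C57L/J against 6.60 in sham lungs.

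Stat6 (chr10:127642955-127660987) ran from 11.05 to 11.60 and its mean was lower after irradiation in each strain. In C57BL/6J it read 11.36, 11.08 and 11.15 at 15 Gy and 11.25, 11.32 and 11.32 at 12.5 Gy, against 11.60, 11.42 and 11.45 in sham lungs, and neither irradiated group overlapped sham. In CBA/J it read 11.08, 11.21 and 11.32 at 15 Gy and 11.13, 11.05 and 11.26 at 12.5 Gy, against 11.41, 11.45 and 11.23. In C57L/J it read 11.19, 11.47 and 11.36 at 15 Gy and 11.36, 11.32 and 11.47 at 12.5 Gy, against 11.47, 11.52 and 11.54. No single strain passed, and over the strains together Stat6 fell by 0.18 at 12.5 Gy (SE 0.05, limma adjusted p = 0.0437) and by 0.21 at 15 Gy (SE 0.06, adjusted p = 0.0485).

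Stat6 was the only 1 of the 9 genes called in either pooled comparison, beside 9.15% and 10.4% of all genes. Between 15 and 12.5 Gy 0 of 9 were called, as were 0% of all genes by limma (the 9 held 0 at an unadjusted p under 0.05). Both Stat6 calls lay near the limit. The adjusted p was 0.0326 to 0.086 at 12.5 Gy and 0.0343 to 0.0969 at 15 Gy when single arrays were left out, the call being lost in 13 of 18 cases at each dose. Without muscle arrays the changes were -0.13 (adjusted p = 0.363) and -0.12 (adjusted p = 0.437). With the most variable Stat6 probe set in place of the brightest they were -0.14 (limma adjusted p = 0.466) and -0.18 (adjusted p = 0.41). After median-centring they were -0.11 (adjusted p = 0.345) and -0.18 (adjusted p = 0.261).

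Retnla was then related to each of the other 8 genes array by array, 8 relations over the 27 arrays. Chil3 had the highest coefficient (Pearson r = 0.47, permutation p = 0.0124, adjusted p = 0.0992; Spearman rho = 0.39, p = 0.0463, adjusted p = 0.185). Chia1 followed (r = 0.41, p = 0.0338, adjusted p = 0.135; rho = 0.44, p = 0.0231, adjusted p = 0.185). Neither passed adjustment, and without the 2 arrays farthest from the median of Retnla both gave r = 0.33. After subtracting the mean of each group they gave 0.24 and 0.15. The CBA/J mean was the lowest of the 3 strains for each of these genes (12.17 for Retnla, 11.95 for Chil3 and 11.03 for Chia1), so that the pooled coefficients include differences between strains. For Retnla that difference was -0.80 from C57L/J and -0.96 from C57BL/6J over doses (limma adjusted p = 0.18 and 0.098), and -0.39 and -0.28 without muscle arrays. Leaving those out keeps the high replicate 3 as the only CBA/J sham array.

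Within CBA/J, Chil3 and Retnla gave r = 0.15 over 9 arrays (exact permutation p = 0.676), and within C57L/J and C57BL/6J 0.00 and 0.34. Chia1 gave 0.04 in CBA/J, 0.41 in C57L/J (0.79 without the 2 arrays farthest from the median) and 0.69 in C57BL/6J (exact permutation p = 0.0464, adjusted p = 0.557 over 24 relations). The gene nearest to Retnla in CBA/J was Retn (r = 0.55, rho = 0.63, exact permutation p = 0.13 and 0.076), which gave 0.27 without the 2 arrays farthest from the median. Stat6 gave negative coefficients within every strain, r = -0.55 in CBA/J, -0.69 in C57L/J and -0.62 in C57BL/6J (exact permutation p = 0.125, 0.0395 and 0.0734, adjusted p = 0.557 to 0.624). After subtracting group means that coefficient was -0.35 (permutation p = 0.188), and without muscle arrays -0.08.

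The other genes gave r = 0.26 (Retn), 0.12 (Clec10a), -0.08 (Arg1), -0.07 (Mrc1) and -0.02 (Il4ra) over the 27 arrays, with permutation p from 0.196 to 0.937. No relation of the 8 passed adjustment over all arrays, within a strain or after subtracting group means.

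**Figure D5:**
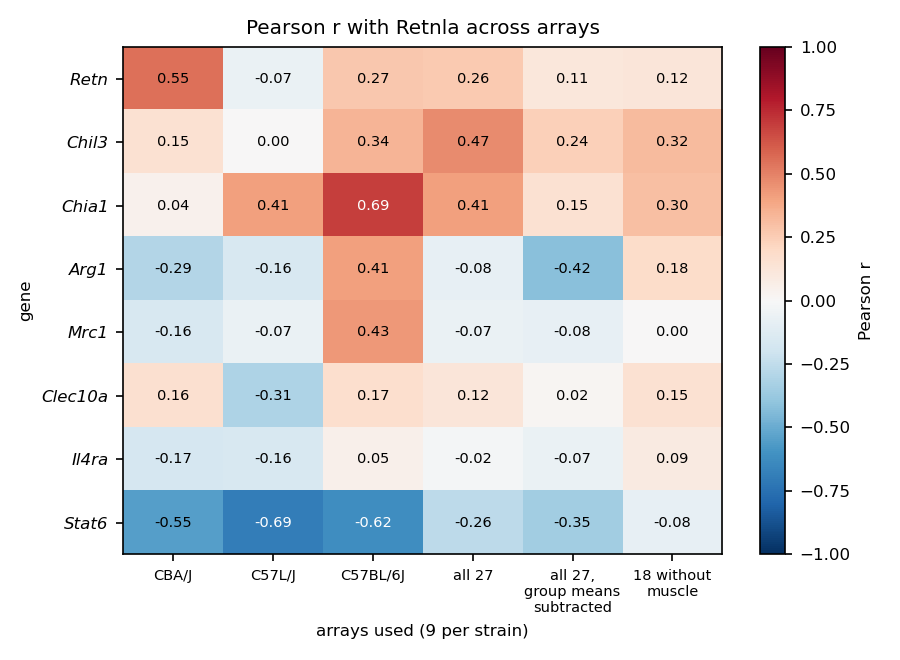
Pearson r of 8 genes with Retnla across arrays, within CBA/J, C57L/J and C57BL/6J (9 arrays each), over all 27 arrays, over all 27 after subtracting the mean of each group of strain and dose, and over the 18 arrays that are not muscle arrays. Chil3 and Chia1 have the highest coefficients over all arrays (0.47 and 0.41), and Stat6 is below 0 in each column.

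The genes most like Retnla over the 27 arrays, among 11841 with a mean log2 intensity of at least 7, were Nit1 (r = 0.77), Gstt3 (0.76), Slc26a4 (0.76), Itih4 (0.75) and Bphl (0.73), followed by Gm19935, Cfap52, Gm6958, Ccpg1os and Dnaic2 at 0.72 to 0.73. The median r of those genes with Retnla was -0.02. After subtracting group means the nearest were Rbp4 (0.77), Trmu (0.76), Zbtb11os1, Blcap and 2310034G01Rik (0.75 each). These coefficients are given as a description, chosen as the highest of many.

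Against cell type markers, Retnla was closest to the mean of 10 neutrophil genes (r = 0.52, rho = 0.46, permutation p = 0.00604 and 0.0161, adjusted p = 0.0395 and 0.0725 over 72 relations), and this was -0.04 after subtracting group means and 0.28 without muscle arrays. The neutrophil mean ran from 9.24 to 9.97 in irradiated C57BL/6J lungs, against 7.68 to 8.93 in sham lungs, and in C57L/J from 8.96 to 8.99 at 12.5 Gy and 7.98 to 8.60 at 15 Gy, against 7.84 to 8.63. In CBA/J it ran from 8.12 to 8.45 at 12.5 Gy and 8.26 to 8.49 at 15 Gy, against 7.66 to 8.01 in sham lungs, without overlap. Retnla did not pass there over all arrays, and passed the unadjusted limit at both doses without sham replicate 3. The part of neutrophils in the Retnla values was not tested. The r of Retnla with alveolar macrophage genes was -0.09, with monocyte and interstitial macrophage genes 0.16, with club cell genes 0.44 (adjusted p = 0.0743) and with 10 hypoxia response genes -0.05. With club cell genes it was 0.48 after subtracting group means (adjusted p = 0.494) and 0.43 without muscle arrays. With type II cell genes it was 0.23, and 0.21 without muscle arrays. After subtracting group means the type II relation was 0.42 (permutation p = 0.00643, adjusted p = 0.0463). The eosinophil genes Epx (1.00 to 5.48) and Prg3 (0.77 to 4.11) were near the floor. Chia1 ran against the hypoxia genes (r = -0.60, permutation p = 0.00087, adjusted p = 0.00783), at -0.89 after subtracting group means and -0.40 without muscle arrays.

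Of the remaining interleukin 4 and interleukin 13 pathway, 19 genes that are not among the 10 were tested. At the unadjusted limit of 0.01, in C57L/J 1 rose at 12.5 Gy, in C57BL/6J 1 fell at 12.5 Gy and 1 rose and 1 fell at 15 Gy (beside 4.53%, 3.65% and 3.81% of all genes), and in CBA/J none passed by limma at either dose. Over the strains together 1 fell at each dose, Gata3, the transcription factor of type 2 lymphocytes (-0.90 at 12.5 Gy, adjusted p = 0.00104, and -0.71 at 15 Gy, adjusted p = 0.0224), beside 9.15% and 10.4% of all genes. Without muscle arrays its changes were -0.66 (adjusted p = 0.0415) and -0.74 (adjusted p = 0.152). The list's median changes were -0.04 and +0.03, beside -0.01 for all genes at each dose. The ligands Il4 (5.05 to 6.42) and Il13 (3.12 to 5.88) were dim on every array.

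Of 32 other genes linked to alternative activation, 1 rose and 6 fell at 12.5 Gy over the strains together, and 4 rose and 5 fell at 15 Gy, beside 9.15% and 10.4% of all genes in either direction, with medians of +0.02 and -0.01. The largest falls at 12.5 Gy were those of Ccl22 (-1.61, adjusted p = 0.00484, and -1.29 with adjusted p = 0.175 without muscle arrays) and Ccl17 (-0.92, adjusted p = 9.36e-05), both chemokines that recruit CCR4-bearing T cells, and of Cd83 (-0.86, adjusted p = 2.12e-05), a marker of mature dendritic cells. At 15 Gy the largest change was a rise, that of the chemokine Ccl8 (+1.15, adjusted p = 0.0491, and +0.52 with adjusted p = 0.328 without muscle arrays). At that dose the dendritic cell lectins Cd209a (-0.85, adjusted p = 0.000247) and Mgl2 (-0.68, adjusted p = 0.00386), a close relative of Clec10a, fell. Chil1, another chitinase-like gene, was lower in CBA/J than in C57L/J (-2.03, adjusted p = 2.07e-06) and than in C57BL/6J (-1.85, adjusted p = 7.08e-07), as Chil3 was. Retnlb (1.28 to 5.33) and Chil4 (4.46 to 7.01), the nearest relatives of Retnla and Chil3 on the arrays, were dim throughout.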

How the data were processed

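Lung RNA of 27 mice was hybridised to Affymetrix Mouse Genome 430 2.0 arrays, 1 array per mouse. The authors deposited 1 linear intensity for each of 45101 probe sets, made per the labels with Affymetrix Expression Console 1.1 and scaled so that the 2% trimmed mean was 500 on every array. Here intensities were floored at 1 and log2 was taken. A single symbol was given for 34958 probe sets, which cover 18194 genes, and each gene took its brightest. limma 3.58.1 in R 4.3.3 (lmFit and eBayes, Benjamini-Hochberg adjustment over all genes) compared doses within a strain over the 6 arrays involved (called at an unadjusted p under 0.01) and, with strain or dose as a term, doses and strains over 18 arrays (called at an adjusted p under 0.05). Where leaving out arrays left 1 in a group, that array was assumed to vary like the other group. Scripts were tested on simulated data.

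Correlations were tested with 100000 permutations over 27 arrays and exactly over 9, with scipy 1.17.1. Arrays were permuted freely across groups, so those tests also take in differences between groups. After subtracting group means they were permuted within groups. The median intensity per array was 127.6 to 167, with precision set by how many arrays there are. The labels call the replicates biological, and each limma p-value sets a difference against the spread between these samples. The alternatives were all arrays in 1 fit, the random variance t test that the methods name, a trended robust prior, other probe sets of a gene, quantile normalization, median-centring, a filter on low values (mean log2 under 6), a floor of 32, the replicate number as a block, leaving out single arrays or muscle arrays, and sham arrays only for strains. Named were the 10 genes, up to 4 called genes of each list and comparison by size, and the genes nearest to Retnla. The 10 genes and the lists were chosen with earlier results of these data known.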

Additional observations from a re-analysis of the deposited data

Results flagged for a closer look

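The response of Retnla to 12.5 Gy differed between C57L/J and C57BL/6J, by 1.21 on the log2 scale (SE 0.33), past an unadjusted limma interaction p of 0.01. The difference did not pass adjustment over all genes (adjusted p = 0.828). With all 27 arrays in 1 fit it kept its size and no longer passed the unadjusted limit. Without muscle arrays it was 1.60, with 1 C57BL/6J array left at 12.5 Gy. In C57L/J all 3 irradiated arrays lay above all sham arrays, and in C57BL/6J 1 of 3 did. The study had singled out Retnla on these arrays partly by that contrast, so the interaction is no independent test.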

How the results depend on the processing

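Of 3428 values recomputed under the alternatives, 3187 stayed on the same side of the limit, and 202 of these, none of them called, changed sign. Of values called with or without the alternative, 4 changed direction. With the most variable probe set the Il4ra response of C57L/J minus C57BL/6J was -1.27 at 12.5 Gy and -1.84 at 15 Gy, against 0.0 and 0.03 with the brightest. The Irf4 change over the strains together at 12.5 Gy was 0.04 with it, against -0.81 with the brightest (limma adjusted p = 0.00508). On sham arrays only, Gata3 differed by -0.01 between C57L/J and C57BL/6J, against +0.58 over all doses (limma adjusted p = 0.0479). With all 27 arrays in 1 fit the Retnla changes kept their size and no longer passed the unadjusted limma limit of 0.01, at 1.46 (adjusted p = 0.275) in C57L/J at 12.5 Gy, 1.23 (adjusted p = 0.313) at 15 Gy, and in C57BL/6J 1.21 (adjusted p = 0.283) at 15 Gy against sham and 0.95 (adjusted p = 1.0) against 12.5 Gy, while CBA/J minus C57BL/6J passed at -0.96 (adjusted p = 0.0413). In C57BL/6J the 15 minus 12.5 Gy change no longer passed with the most variable probe set (0.95), with a floor of 32 (0.95) or after median-centring (0.90), with an adjusted p = 1.0 in each. Without muscle arrays the C57BL/6J change at 15 Gy was 1.52 (adjusted p = 0.455), also short of the limit. The Retnla response of C57L/J minus C57BL/6J to 12.5 Gy stayed at 1.21 with all 27 arrays in 1 fit. In that fit it no longer passed the unadjusted limit. The causes were not tested. Leaving out single arrays, Retnla changed by 0.15 to 1.73 in CBA/J at 12.5 Gy, -0.28 to 1.30 at 15 Gy and -0.67 to -0.24 between the doses, by 1.31 to 1.60 and 1.00 to 1.44 in C57L/J at 12.5 and 15 Gy, by 0.10 to 0.45, 1.06 to 1.41 and 0.76 to 1.11 in C57BL/6J (12.5 Gy, 15 Gy and between the doses), and by 0.66 to 1.11 and 0.79 to 1.24 over the strains together. The Retnla calls lost that way were 4 of 6 for C57L/J at 15 Gy, 1 of 6 for C57BL/6J at 15 Gy and 5 of 6 for C57BL/6J between the doses.

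The number of the 9 genes called moved as follows. For CBA/J at 15 Gy it was 0 with all arrays in 1 fit or the replicate block and 1 with the most variable probe set, median-centring or no muscle arrays. For CBA/J 15 minus 12.5 Gy it was 2 with the trended prior or the filter and 0 with the floor of 32, the replicate block or no muscle arrays. It was 0 for C57L/J at both doses with all arrays in 1 fit, 0 for C57BL/6J at 15 Gy without muscle arrays, and 0 for C57BL/6J 15 minus 12.5 Gy with all arrays in 1 fit, the most variable probe set, median-centring or the floor of 32. Over the strains together it was 0 at both doses with the most variable probe set, the mean of probe sets or median-centring, and 0 at 12.5 Gy also with all arrays in 1 fit or no muscle arrays. For CBA/J minus C57L/J it was 2 with all arrays in 1 fit, the mean of probe sets or the floor of 32 and 3 without muscle arrays, and for CBA/J minus C57BL/6J 2 with all arrays in 1 fit and 0 without muscle arrays or on sham arrays only. Leaving out single arrays gave 0 to 2 genes over these comparisons. The share of all genes called moved as well, from 1.52% to 13.4% for CBA/J minus C57L/J and from 1.09% to 17.3% for CBA/J minus C57BL/6J. It ran from 3.18% to 14.0% and 4.5% to 16.2% over the strains together at 12.5 and 15 Gy, and from 3.5% to 8.62% for CBA/J at 15 Gy. The counts of the 9 genes were not compared with the share at each setting. Of all genes, 578 and 818 were called over the strains together at 12.5 and 15 Gy without muscle arrays, against 1664 and 1887 with them. On sham arrays only, 277, 199 and 31 genes were called between CBA/J and C57L/J, CBA/J and C57BL/6J, and C57L/J and C57BL/6J, against 1692, 2211 and 875 over all doses. Within strains the counts ran from 354 to 1207 (CBA/J, 12.5 Gy), 169 to 590 (CBA/J, 15 minus 12.5 Gy), 214 to 899 (C57L/J, 15 Gy), 43 to 180 (C57L/J, 15 minus 12.5 Gy), 419 to 1104 (C57BL/6J, 15 Gy) and 50 to 165 (C57BL/6J, 15 minus 12.5 Gy).

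Samples of 1 strain share a replicate number across doses. Deviations from group means of same-numbered arrays correlated at -0.073 to 0.249, with no comparison in which every pair was over 0.1. The 3 pairs of CBA/J 12.5 minus 0 Gy gave 0.084, 0.249 and 0.134. With 3 arrays per group these values cannot show whether same-numbered arrays share more than a number. With the replicate block, Chia1 (0.65, limma adjusted p = 0.36) and Clec10a (-0.96, adjusted p = 0.327) at 15 Gy and Retn (-2.02, adjusted p = 0.768) between the doses lost their calls in CBA/J, and no other call of the 9 genes changed.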
